A study of Mus musculus with 234 samples.

Results

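The 8 genes described here encode the myosin heavy and light chains of the heart and a protein bound to them. They are *Myh6*, *Myh7*, *Myh7b*, *Myl2*, *Myl3*, *Myl4*, *Myl7* and *Mybpc3*, taken by name from the 55538 features of the count table, in which each of them had 1 row. Myosin heavy chains form the motor of the thick filament of the sarcomere, and each heavy chain carries an essential and a regulatory light chain at its neck. The adult mouse ventricle makes mostly the fast heavy chain *Myh6* (α-MHC), whereas the slow *Myh7* (β-MHC) dominates before birth and returns in many stressed hearts. The light chains differ between the chambers, with *Myl2* and *Myl3* as the ventricular forms and *Myl7* and *Myl4* as the atrial forms, the latter also found in the fetal ventricle.

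Single cardiomyocytes (CMs) were obtained from Langendorff-perfused mouse hearts, picked by hand and sequenced with SMART-seq2, a whole-transcript method without molecular identifiers. The table holds raw read counts of 234 CMs from 5 mice. The comparison of bright and dim CMs with control CMs asks how the mutant human BAG3, a co-chaperone of the sarcomere, goes along with the transcripts of single CMs.

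The transgenic mice were offspring of PGK-Cre mice and CAG-flox-hBAG3P209L-eGFP mice. The ubiquitous CAG promoter drove the transgene after Cre, itself under the ubiquitous PGK promoter, had deleted a STOP cassette, and the transgenic line goes back to 1 positive embryonic stem cell clone with a Rosa26 insertion. Homozygous CMs (strain label PGKcre:BAG3P209L_homo) came from mouse M25, with 21 bright and 18 dim cells, and mouse M116, with 59 bright and 50 dim cells. The methods give homozygous mice 2 flox alleles of which 1 or both may have lost the cassette. Heterozygous CMs (PGKcre:BAG3P209L_het) came from mouse M72 alone, with 27 bright and 26 dim cells. Bright and dim were judged from eGFP fluorescence under a macroscope. The controls were 24 CMs of mouse M26 and 9 CMs of mouse M73, labelled as wild type C57BL/6, although the methods describe controls as siblings of homozygous mice, on a mixed background, that were wild type or carried either PGK-Cre or a CAG-flox transgene. Homozygous CMs and their controls were taken at an age of 2 weeks, and the age of mouse M72 is not stated. The titles name 4 plates, 1 for mice M25 and M26, 1 for mice M73 and M72 and 2 for mouse M116, and the plate names begin with 2 different prefixes, one for M25 and M26 and the other for M116, M73 and M72. Plates with one prefix are called a plate series here, and the labels do not say what the prefix stands for. Summed over the cells of a mouse and brightness class, the 8 sums held 4096609 to 40508124 counts, and a single cell between 487 and 1392253.

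The labels were compared with the transgene and with marker genes. The human BAG3 feature stood at 0.408 and 0.488 CPM (counts scaled to a common library total, per 1e6 counts) in the control sums, at 294 and 233 in homozygous bright CMs of M25 and M116, and at 10.7 and 99.6 in their dim CMs. In mouse M72 it went against the labels, with 105 CPM in the cells labelled bright and 251 in those labelled dim. The 7 cardiomyocyte markers summed to 44131 to 55022 CPM in every sum. Of the atrial markers outside the members, *Sln* and *Bmp10* had no count in any sum, and the whole list of 8 summed to 23.4 to 463 CPM. *Nppa* was the main one in 6 of the 8 sums, and *Kcnj3* in dim M116 (24.2 against 6.91 CPM of *Nppa*) and in the cells of M72 labelled bright (19.7 against 0.577 CPM). Of the 4 ventricular markers *Fhl2* stood at 765 to 1770 CPM and *Irx4* at 6.78 to 48.3 CPM, *Hey2* had a count in 7 of the 8 sums, and *Hand1* had no count in any. Markers of other cells were low but not even. The 4 endothelial markers summed to 48.6 and 68.4 CPM in bright CMs of M25 and M116 and to 133 and 132 in their dim CMs, to 60.9 and 128 in controls M26 and M73, and to 86.5 and 145 in M72. The 4 immune markers summed to 0.0529 and 1.97 CPM in bright and 45.9 and 38.5 in dim homozygous CMs, to 1.69 and 2.93 in controls, and to 18.3 and 3.102 in M72, with *Ptprc* at 0 in 6 of the 8 sums. Erythroid markers reached 983 CPM in the cells of M72 labelled bright and 310 in dim M25, against at most 3.91 elsewhere. Fibroblast markers lay at 13.8 to 284 CPM apart from 1661 in bright M25, conduction markers at 0.244 to 15.1 and skeletal muscle markers at 0 to 4.14. The smooth muscle list summed to 241 to 1620 CPM, nearly all of it *Acta2*, which had a count in 58 of the 59 cells of bright M116. *Tagln* and *Cnn1* stood at 0.738 CPM or less in every sum, and *Myh11* was counted in bright M116 only. The part of RNA of other cells in the results was not tested.

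A total of 3 wells of bright M25 stood apart. Their cardiomyocyte markers summed to 1030, 1635 and 4404 CPM, against 25242 to 65445 in the other 231 wells, and 1 of them held 33334 CPM of fibroblast markers. These wells carried 7.07% of the counts of bright M25. *Myh6* stood at 23.5, 86.5 and 81.6 CPM in them, *Myl2* at 372, 147 and 109, and *Myh7*, *Myh7b*, *Myl4* and *Myl7* at 0. They were kept, and values without them, chosen after seeing the data, are given where they matter.

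The sequences of the heavy chains matter for the counts, because reads of 75 bases have to be assigned to one gene or another. *Myh6* and *Myh7* were identical at 91.4% of aligned coding positions, and 16.4% of the 75-base windows of *Myh6* occurred unchanged in *Myh7*. The window in which both differed most, with 30 differing bases in capitals, is printed to illustrate where the genes can be told apart. It covers bases 3237 to 3311 of the *Myh6* coding sequence and 3231 to 3305 of *Myh7*, counted from the A of the start codon, in the GENCODE M21 transcripts with the longest coding sequence.
Myh6: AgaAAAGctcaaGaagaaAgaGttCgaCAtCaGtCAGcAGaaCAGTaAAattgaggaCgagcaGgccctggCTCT
Myh7: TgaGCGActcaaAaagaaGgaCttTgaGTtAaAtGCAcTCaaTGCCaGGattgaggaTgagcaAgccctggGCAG
The opposite case is the longest stretch without a difference, 245 bases (*Myh6* 4246 to 4490, *Myh7* 4240 to 4484), from which a read has no unique origin.
Myh6 and Myh7: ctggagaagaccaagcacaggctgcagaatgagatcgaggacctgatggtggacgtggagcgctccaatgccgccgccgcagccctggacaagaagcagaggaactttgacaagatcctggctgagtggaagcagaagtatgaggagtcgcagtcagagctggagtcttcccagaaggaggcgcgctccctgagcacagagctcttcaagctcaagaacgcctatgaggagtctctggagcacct
The authors' counter, STAR's GeneCounts, leaves out reads that map to several places, so a read pair from such a stretch adds to neither gene, and the share of *Myh7* rests on the places where the genes differ. The other pairs that were compared shared no 75-base window, and *Myh7* was not compared with *Myh7b*. *Myh6* and *Myh7b* were identical at 71.4%, *Myl3* and *Myl4* at 72.8%, and *Myl2* and *Myl7* at 54.5% of aligned positions.

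The heavy chain genes also carry the myomiRs in their introns, microRNAs that are transcribed with their host. Their mature sequences from RefSeq are shown with the seed (bases 2 to 8) in capitals, since 2 of the 3 share it. miR-208a-3p lies within *Myh6* (GRCm38.p6, chromosome 14, 54949072 to 54949093, minus strand), miR-208b-3p within *Myh7* (chromosome 14, 54975710 to 54975731, minus strand) and miR-499-5p within *Myh7b* (chromosome 2, 155622893 to 155622913, plus strand).
mmu-miR-208a-3p: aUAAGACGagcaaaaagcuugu
mmu-miR-208b-3p: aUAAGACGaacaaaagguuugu
mmu-miR-499-5p: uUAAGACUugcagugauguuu
miR-208a-3p and miR-208b-3p had the same seed and differed at 3 positions, all outside it. Mature microRNAs lack the poly(A) tail that SMART-seq2 primes on, and the microRNA features held next to nothing, with 1 count for *Mir208a*, 54 for *Mir208b* and 0 for *Mir499* over all cells.

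The 8 genes took 3.00 to 3.97% of all counts of a sum. Ordered by CPM per kilobase of coding length over the 8 sums, the ventricular light chains led, with *Myl2* at 15939 to 25424 (median 20317) and *Myl3* at 16076 to 20058 (median 18230). *Myh6* followed at 1372 to 2832 (median 1587) and *Mybpc3*, the cardiac myosin binding protein C that regulates cross-bridge cycling, at 455 to 674 (median 589). *Myh7* lay at 12.1 to 25.6 (median 16.1), *Myl4* at 1.68 to 13.2 (median 6.24), *Myh7b* at 0.789 to 3.52 (median 2.45) and *Myl7* at 0 to 6.48 (median 0). The ranges of *Myl3* and *Myh6*, of *Myh6* and *Mybpc3* and of *Mybpc3* and *Myh7* did not overlap, whereas *Myl2* and *Myl3*, *Myh7* and *Myl4*, *Myl4* and *Myh7b*, and *Myh7b* and *Myl7* overlapped. The CMs of every genotype had the ventricular light chains and α-MHC as their main forms, and the plot of levels by mouse shows the gap between these and the remaining members.

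**Figure D1:**
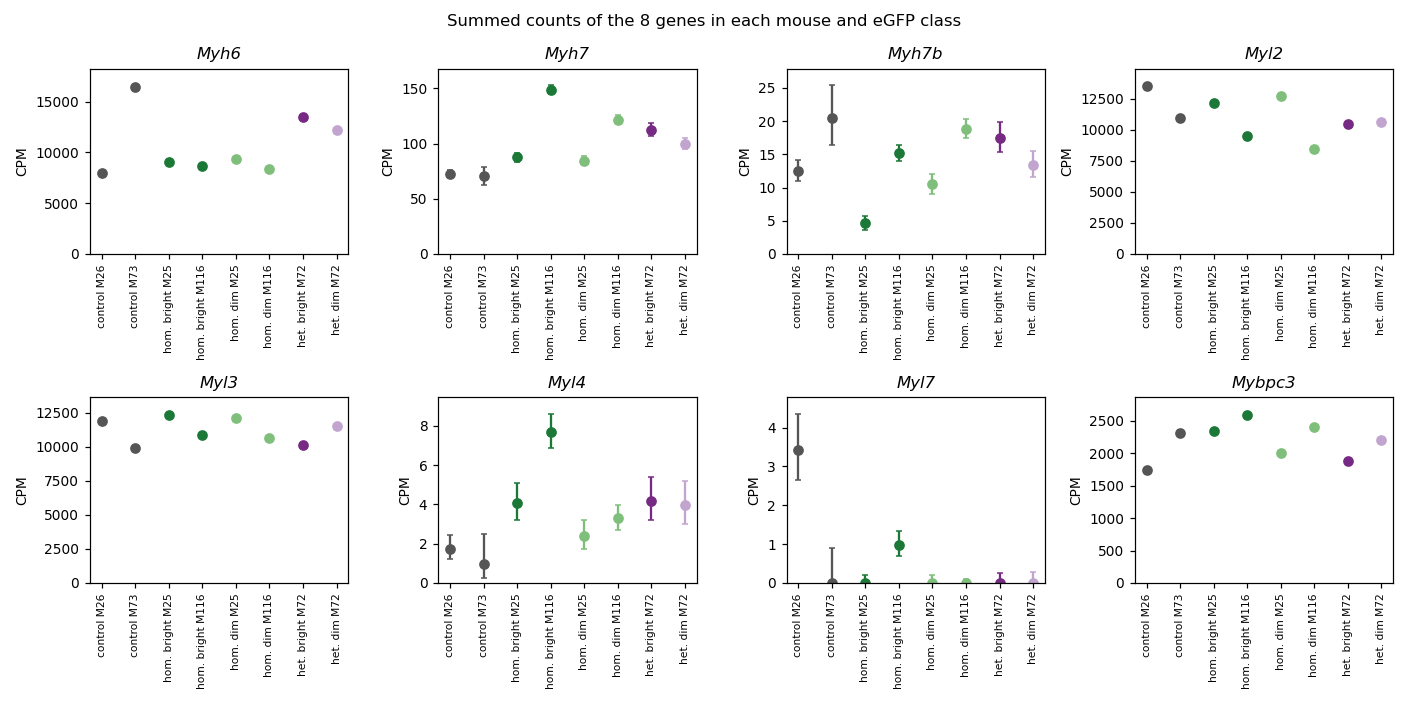
Level of each of the 8 genes (CPM) in the summed cells of each mouse and brightness class, with bars for the 95% Poisson interval, which covers counting error only. *Myh6* was highest in control M73 (16472 CPM) and in both sums of M72 (13482 and 12212 CPM), and *Myl4* lowest in the control sums (1.74 and 0.976 CPM).

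The level of *Myh6*, the main heavy chain, was 7982 CPM in control M26 and 16472 in control M73. Homozygous bright CMs had 9103 (M25) and 8623 CPM (M116), and dim CMs 9365 and 8352. The cells of M72 labelled bright and dim had 13482 and 12212. The control mice differed from each other by more than either differed from any homozygous sum. The 3 highest sums came from the plate that M73 and M72 shared, so that plate and mouse cannot be told apart. The means were 12227 ± 6003 CPM in controls, 8863 ± 340 in homozygous bright CMs and 8858 ± 717 in dim CMs (SD, n = 2 mice).

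*Myh7*, the slow heavy chain, was at 72.5 and 70.5 CPM in controls M26 and M73, at 87.6 and 149 in bright CMs of M25 and M116, at 84.4 and 122 in their dim CMs, and at 113 and 99.99 in the cells of M72 labelled bright and dim. On this scale all transgenic sums lay above both control sums, whichever brightness they had. In bright M25 this rested on 1 cell, which held 373 of the 1657 counts. Without its cell with the most *Myh7* counts, an alternative chosen after seeing the data, each sum had 66.7 and 56.7 CPM (controls), 71.5 and 141 (bright), 82.0 and 116.3 (dim), and 102 and 92.4 (M72), and the 71.5 CPM of bright M25 lay below the 72.5 of control M26 with all its cells. On the TMM-normalised scale of the tests, controls had 76.2 and 84.3 and bright CMs 80.9 and 129, so that the groups overlapped. *Myh7b*, a slow-type heavy chain gene whose transcript in the heart yields little protein, had 12.5 and 20.5 CPM in controls, 4.60 and 15.2 in bright and 10.5 and 18.9 in dim homozygous CMs, and 17.5 and 13.4 in M72. Its groups overlapped. Without the 3 wells, bright M25 had 94.3 CPM of *Myh7* and 4.95 of *Myh7b*.

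*Myl2*, the ventricular regulatory light chain, had 13500 and 10967 CPM in controls, 12133 and 9496 in bright CMs, 12668 and 8463 in dim CMs, and 10445 and 10610 in M72. *Myl3*, the ventricular essential light chain, had 11923 and 9886 CPM in controls, 12336 and 10871 in bright CMs, 12104 and 10646 in dim CMs, and 10133 and 11552 in M72. On this scale neither gene separated the groups, and *Myl3* varied least of all members, by 1.25-fold from the lowest to the highest sum. *Mybpc3* had 1744 and 2311 CPM in controls, 2350 and 2587 in bright CMs, 2004 and 2414 in dim CMs, and 1878 and 2212 in M72. Here both bright sums lay above both control sums, the nearest being 2311 and 2350. On the TMM-normalised scale of the tests, controls had 1833 and 2763 CPM of *Mybpc3* and bright CMs 2171 and 2249, so that the groups overlapped.

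*Myl4*, the atrial and fetal essential light chain, was rare in every sum, with 1.74 and 0.976 CPM in controls, 4.07 and 7.68 in bright CMs, 2.39 and 3.28 in dim CMs, and 4.19 and 3.99 in M72. These levels rest on 34, 4, 77, 311, 44, 113, 58 and 54 counts. Every transgenic sum lay above the control sums, and in each homozygous mouse the bright CMs lay above the dim CMs. *Myl7*, the atrial regulatory light chain, had 3.42 CPM in control M26 (67 counts in 3 cells) and 0.987 in bright M116 (40 counts in 1 cell), and no count in the other 6 sums.

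Whether homozygous bright CMs differed from control CMs was tested for every gene with edgeR's quasi-likelihood test, which normalises the sums by TMM, over 2 mice per group. None of the 8 members passed the threshold on the adjusted p, none had an unadjusted p under 0.05 in this fit (the smallest was 0.105, for *Myh6*), and DESeq2 and limma called none either. With the plate series as a block, edgeR gave *Myh6* an unadjusted p of 0.0319 and *Myl2* one of 0.0339, both with an adjusted p of 1.00, and without a filter on counts it gave *Myh6* one of 0.00254 (adjusted p = 0.184). Of all 12203 genes tested, 2 passed (0.0164%), both features of the transgene, and 799 had an unadjusted p under 0.05 (6.55%). *Myh6* had a log2 fold change of -0.82 (SE 0.43, adjusted p = 0.866 with edgeR and Benjamini-Hochberg), *Myl4* one of 1.78 (SE 1.35, adjusted p = 0.925) and *Myh7* one of 0.39 (SE 0.39, adjusted p = 0.943). The value of *Myh6* was -1.29 without control M26 (edgeR, unadjusted p = 0.00121, adjusted p = 0.0853) and -0.08 without control M73. That of *Myh7* was 0.0088 without bright M116 and 0.74 without bright M25. The log2 fold changes of the others were -1.10 (SE 0.94) for *Myh7b*, -0.49 (SE 0.28) for *Myl2*, -0.22 (SE 0.26) for *Myl3*, -2.08 (SE 2.45) for *Myl7* and -0.06 (SE 0.30) for *Mybpc3*. The median of all 8 members was -0.36, against 0.11 over all genes tested. With library size in place of TMM the median of all genes stood at 0.41, and *Myl3* and *Mybpc3* then had positive values of 0.09 and 0.29. The other members kept their sign, with -0.46 for *Myh6*, -0.18 for *Myl2*, 0.73 for *Myh7*, 2.09 for *Myl4*, -0.73 for *Myh7b* and -1.80 for *Myl7*. The direction of *Myl3* and *Mybpc3* thus depended on the scaling, here and in dim CMs against controls.

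On the TMM-normalised scale the 2 groups did not overlap in 3 of the 8 members, against 39.2% of all genes tested (24.3% higher and 14.8% lower in bright CMs). *Myl4* was the one that was higher, at 1.82 and 1.17 normalised CPM in controls and 3.76 and 6.67 in bright CMs. *Myl2* was lower, at 14191 and 13109 in controls and 11208 and 8255 in bright CMs, and *Myl3* likewise, at 12533 and 11818 against 11396 and 9449. Both light chains overlapped on the plain CPM scale. The share of 3 in 8 was near that of all genes.

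The values within each plate series showed where the mice went apart. The log2 ratio of bright to control CPM for *Myh6* was 0.19 in the series of M25 and M26 and -0.93 in that of M116 and M73. The sign of *Myh6* was thus opposite in the 2 series on the CPM scale. For *Myh7* the ratios were 0.27 and 1.08, for *Myl4* 1.23 and 2.98, for *Mybpc3* 0.43 and 0.16 and for *Myh7b* -1.44 and -0.44, each with 1 sign in both series on this scale. On the TMM-normalised scale *Mybpc3* had 0.24 and -0.30, with opposite signs, and *Myh6* had 0.0032 and -1.39. For *Myl2* the CPM ratios were -0.15 and -0.21, and for *Myl3* 0.05 and 0.14, against -0.14 and -0.32 for *Myl3* after TMM.

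Homozygous dim CMs, which had lower transgene transcript levels than bright CMs, were compared with the same control mice, so that the 2 comparisons are not independent. A total of 7 members could be tested, as *Myl7*, with no count in dim CMs, did not pass the filter on low counts. With the filter and no block, none of them had an adjusted or an unadjusted p under 0.05 by edgeR (smallest unadjusted p = 0.128) or DESeq2. With the plate series as a block *Myh6* had an unadjusted edgeR p of 0.0297, and without a filter *Myh6* and *Myl7* had 0.0207 and 0.0339, while no adjusted p passed. Likewise, limma on the mean log2(CPM + 1) of cells called none after adjustment. With limma, however, *Myh7* had a log2 difference of 1.75 (SE 0.37, unadjusted p = 0.00673, adjusted p = 0.454), and one of 1.41 (SE 0.56, unadjusted p = 0.0572, adjusted p = 0.532) in bright CMs against controls. Over the cells with at least 1000 detected genes, an alternative chosen after seeing the data, these limma values were 1.11 (SE 0.52, unadjusted p = 0.0912) and 0.87 (SE 0.64, unadjusted p = 0.238). Of all 12195 genes edgeR called 0 and DESeq2 called 53, and 759 (6.22%) had an edgeR p under 0.05 before adjustment. *Myh6* had a log2 fold change of -0.78 (SE 0.45, edgeR with Benjamini-Hochberg, adjusted p = 0.956), *Myl4* one of 0.76 (SE 1.49), *Myh7* one of 0.23 (SE 0.38) and *Myl2* one of -0.49 (SE 0.36). The median of the 7 members was -0.23 and that of all genes 0.10. The 2 groups did not overlap in 3 of the 7 members, *Myl4* higher and *Myl2* and *Myl3* lower in dim CMs, against 38.0% of all genes tested (23.8% higher, 14.2% lower). Without control M26, *Myh6* had a log2 fold change of -1.25 with an adjusted p of 0.0469 (edgeR, Benjamini-Hochberg), a call that then rests on M73 as the lone control and stands among 827 of 14036 genes called in that fit (5.89%). Within the plate series the log2 ratio of plain CPM was 0.23 and -0.98 for *Myh6* and 0.46 and 1.75 for *Myl4*. After TMM the ratios were 0.05 and -1.39 for *Myh6* and 0.28 and 1.34 for *Myl4*.

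Bright and dim CMs of the same homozygous mice differ in the amount of eGFP they showed and not in the animal. By edgeR, DESeq2 and limma alike, neither the adjusted nor the unadjusted p of any of the 7 members tested was under 0.05. With the mouse as a block, the smallest unadjusted p of a member was 0.144 (edgeR). The fits and overlaps given here are without this block, so that differences between the mice enter the SEs and the overlaps. Of all 13439 genes edgeR called 0 and DESeq2 called 91, and 554 (4.12%) had an edgeR p under 0.05 before adjustment. The log2 fold changes of bright over dim CMs were 1.01 (SE 0.80) for *Myl4*, -0.61 (SE 0.70) for *Myh7b*, 0.16 (SE 0.31) for *Myh7* and 0.13 (SE 0.17) for *Mybpc3*. For *Myh6*, *Myl2* and *Myl3* they were -0.03 (SE 0.17), 0.00 (SE 0.28) and 0.00 (SE 0.19), with signs that turned under several alternatives. Those of *Myh7* and *Mybpc3* turned too, *Myh7* to -0.34 with limma over all cells, -0.24 over cells with at least 1000 genes, -0.21 without bright M116 and -0.04 without dim M25, and *Mybpc3* to -0.22 and -0.19 with limma over the same sets of cells. Bright and dim CMs did not overlap in 2 of the 7 members, against 31.1% of all genes tested (15.1% higher, 16.0% lower). Both were higher in bright CMs, *Myl4* with 4.18 and 7.34 against 2.49 and 3.22 normalised CPM and *Mybpc3* with 2414 and 2474 against 2088 and 2372. The plot of log2 fold changes gives all members and the 3 comparisons together.

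**Figure D2:**
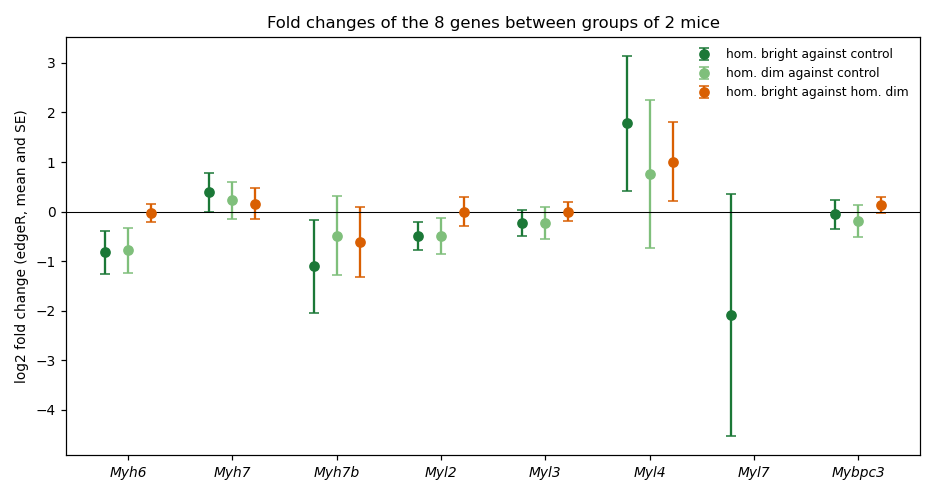
Log2 fold change of each member in 3 comparisons (homozygous bright against control, homozygous dim against control, bright against dim), as points with the standard error of edgeR's fit over 2 mice per group. *Myh6* lay at -0.82 and -0.78 against control and at -0.03 between bright and dim CMs, and the error of *Myl4* was several times that of *Myl2* and *Myl3*.

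Shares of isoforms within one sum do not depend on how the sums are normalised. *Myh7* made up 0.900% of the *Myh6* and *Myh7* counts in control M26 and 0.426% in M73. It made up 0.953% and 1.70% in bright CMs of M25 and M116, 0.893% and 1.44% in their dim CMs, and 0.828% and 0.812% in M72. The order was set by M116, in which bright and dim CMs both stood highest, while M25 was close to control M26. Without the cell with the most *Myh7* counts in each sum the shares were 0.826% and 0.349% in controls, 0.754% and 1.61% in bright CMs, 0.879% and 1.39% in dim CMs, and 0.762% and 0.760% in M72. Bright M25 then lay below control M26 and below dim M25. Bright CMs had a mean of 1.33 ± 0.526% and control CMs of 0.663 ± 0.335% (SD, n = 2 mice), a difference of 0.662 percentage points with no overlap (two-sided exact permutation test, p = 0.333, the smallest that 2 mice against 2 can give). Without those cells the difference was 0.592 percentage points and the groups overlapped. All 21 comparisons of shares and ratios, 7 in each of 3 contrasts, had an adjusted p of 1. In the series of M25 and M26 the difference was 0.0535 percentage points and in the other 1.27. Dim CMs exceeded controls by 0.502 percentage points (exact permutation p = 0.667), with -0.00654 and 1.01 in the plate series. Bright CMs exceeded dim CMs of the same mouse by 0.0601 and 0.260 percentage points (paired exact permutation p = 0.5, the smallest for 2 pairs). In M25 this sign rested on the cell named above, and without those cells the mean difference was 0.0472 percentage points. With the median over cells in place of the share of summed counts, the mean difference between bright and dim CMs was -0.0611 percentage points, the medians of M25 in cells with at least 1000 genes being 0.654% in bright and 0.867% in dim CMs.

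In single CMs with at least 1000 detected genes, of which there were 219, α-MHC was the main heavy chain without exception among cells that passed the minimum of 10 counts. The share of *Myh7* ran from 0.413 to 2.38% (median 0.789%) in control M26 and from 0 to 1.17% (median 0.421%) in M73. In bright CMs it ran from 0 to 10.5% (median 0.654%) in M25 and from 0 to 9.23% (median 1.39%) in M116. In dim CMs it ran from 0.461 to 1.43% (median 0.867%) in M25 and from 0.875 to 3.70% (median 1.31%) in M116. Cells of M72 reached 2.06% (labelled bright, median 0.675%) and 2.81% (labelled dim, median 0.550%). A share above 5% was seen in 1 bright cell of M25 and 2 bright cells of M116 and in no other of these cells. Among all cells with at least 10 heavy chain counts, it was seen in 1 bright cell of M25, 3 bright cells of M116 and 1 cell of M72 labelled bright (7.69%).

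The cell with 10.5% held 373 counts of *Myh7* beside 3185 of *Myh6*, 10717 detected genes, 3066 CPM of *Nppa* (atrial natriuretic peptide, a fetal program gene) and 1523 CPM of *Tnni1* (slow skeletal troponin I, the fetal cardiac form). The cell with 9.23% held 244 and 2399 counts, with 1794 CPM of *Nppa* and 3230 of *Tnni1*. The next of the 219 cells, bright at 5.04% and 4.09% and dim at 3.70%, had 175, 0 and 0 CPM of *Nppa*. Of these 219 cells, the 3 with the highest share thus had *Nppa* counts, and the next 2 had none. These cells were picked out after their values were seen.

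**Figure D3:**
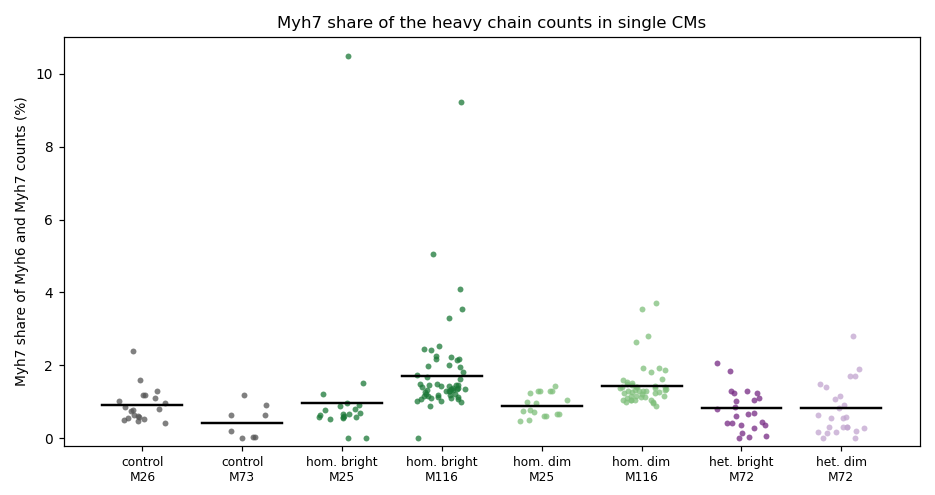
Share of *Myh7* in the *Myh6* and *Myh7* counts (%) of each CM with at least 1000 detected genes, by mouse and brightness class, with a black line for the share of the class's summed counts. The 3 cells above 5% were homozygous bright CMs, and bright and dim CMs of M116 had the highest lines (1.70% and 1.44%).

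The spread between cells was larger than counting alone would give. The squared deviations of the 219 cells from their pooled share were 49.9 times those of binomial counting for *Myh7* and 32.1 times for *Myl4*. These 2 ratios include differences between mice, plates and brightness classes. Taken from the share of each class, the ratio for *Myh7* ran from 10.002 in dim M25 to 190 in bright M25, whose cell at 10.5% is included. For *Myl4* it ran from 4.99 in control M73 to 36.3 in bright M116. Reads without molecular identifiers are not independent molecules, and amplification is part of these ratios. On the log2(CPM + 1) scale the SD over the 20 control M26 cells with at least 1000 genes was 0.18 for *Myl3*, 0.25 for *Myl2*, 0.48 for *Myh6*, 0.56 for *Mybpc3* and 0.78 for *Myh7*. In bright M116 it was 0.31, 0.40, 0.43, 0.52 and 1.12 in the same order. Over all 24 cells of M26 it was 0.26 for *Myl3*, 0.26 for *Myl2* and 2.40 for *Myh7*. Among cells with at least 1000 genes of these 2 classes the ventricular light chains varied least and *Myh7* most of the 5 genes. Among such cells of all 8 classes, *Myl2* and *Myl3* had the 2 lowest values in 5, with *Myh6* lowest in control M73 (0.24), and *Myh7* had the highest in 7, with *Mybpc3* highest in bright M25 (2.69), a class that includes 2 of the wells low in cardiomyocyte markers.

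*Myh7b* formed 0.155% and 0.124% of the heavy chain counts in controls, 0.05001% and 0.173% in bright CMs, 0.111% and 0.222% in dim CMs, and 0.129% and 0.109% in M72. Its 2298 counts lay in 131 of the 234 cells (56.0%), whereas *Myh7* had 18052 counts in 214 cells (91.5%). Bright CMs differed from controls by -0.0282 percentage points (exact permutation p = 1) and dim CMs by 0.0272.

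The atrial light chains together made up 0.0203% and 0.00468% of all light chain counts in control M26 and M73. They made up 0.0166% and 0.0425% in bright CMs, 0.00966% and 0.0172% in dim CMs, and 0.0203% and 0.0180% in M72. The groups overlapped, with a difference of 0.0171 percentage points between bright and control CMs (exact permutation p = 0.667) and 0.000931 between dim and control CMs (exact permutation p = 1). The essential light chain alone gave another order. *Myl4* was 0.0146% and 0.00988% of *Myl3* and *Myl4* in controls, 0.0330% and 0.0706% in bright CMs, 0.0198% and 0.0308% in dim CMs, and 0.0413% and 0.0345% in M72, so that every transgenic sum exceeded both control sums. Bright CMs exceeded controls by 0.0396 percentage points (exact permutation p = 0.333), with 0.0184 and 0.0607 in the plate series, dim CMs by 0.0131 (exact permutation p = 0.333), and bright CMs exceeded dim CMs by 0.0132 and 0.0398 in M25 and M116 (paired exact permutation p = 0.5). *Myl7* was 0.0253% of the regulatory light chains in control M26 and 0.0104% in bright M116. In the other sums the count of 0 allowed shares of up to 0.00668% (control M73), 0.00131% (bright M25), 0.00129% and 0.00103% (dim M25 and M116), and 0.00207% and 0.00209% (M72), which covers counting error only.

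The counts of *Myl4* came from few cells. Its 695 counts lay in 40 of the 234 CMs (17.1%), which were 3 of 24 and 1 of 9 control cells, 4 of 21 and 15 of 59 bright cells, 3 of 18 and 8 of 50 dim cells, and 3 of 27 and 3 of 26 cells of M72. Thinned to 300000 counts per cell, the shares of cells with a count were 13.0% and 12.3% in controls, 16.8% and 23.5% in bright CMs, 12.5% and 14.0% in dim CMs and 12.7% and 12.4% in M72. Bright M116 had the highest share before and after thinning (25.4% and 23.5%). A single cell held between 19.9% and 100% of the *Myl4* counts of a sum. Without its highest cell each sum had 0.701 and 0 CPM (controls), 1.68 and 6.26 (bright), 0.744 and 2.19 (dim), and 1.21 and 1.64 (M72). The bright sums still lay highest within each homozygous mouse, and dim M25 and control M26 then differed by less than 0.1 CPM.

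CMs with a *Myl4* count kept the ventricular light chains. All 40 had *Myl2*, at 4259 to 17556 CPM with a median of 9837, and all had *Myl3* and *Myh7*. Of the 8 atrial markers, *Sln* and *Bmp10* had no count in any of the 219 cells, with or without *Myl4*. *Kcnj3* was counted in 14 of the 40 (35.0%, against 43.6% of the other 179), *Nr2f2* in 7 (17.5% against 14.5%), *Stard10* in 3, and *Nr2f1* and *Dkk3* in 2 each. *Nppa* was found in 21 of 40 (52.5%) and in 79 of the 179 others (44.1%). *Myl7* was counted in 4 cells with 107 counts in all, and no cell had both atrial light chains. The highest atrial share in any of the 219 cells was 0.532%, in a bright cell of M116.

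**Figure D4:**
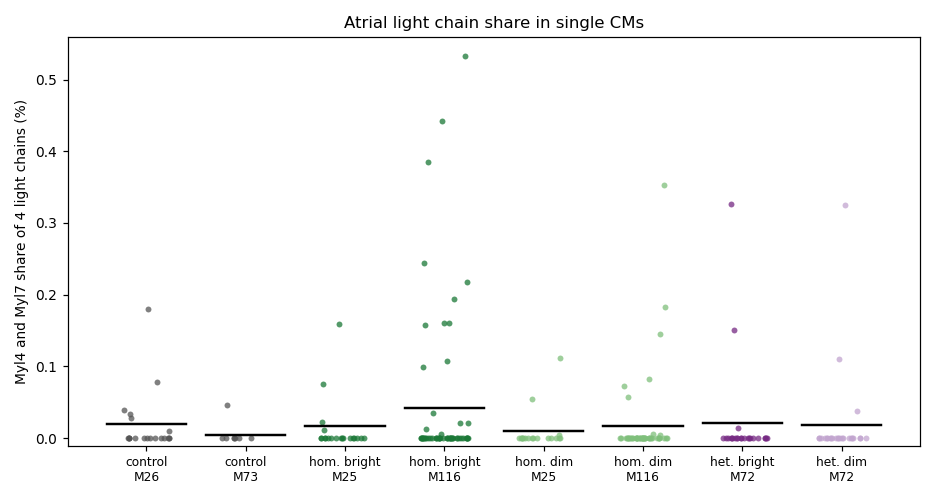
Share of *Myl4* and *Myl7* in the counts of all 4 light chains (%) of each CM with at least 1000 detected genes, by mouse and brightness class, with a black line for the share of the class's summed counts. Most CMs lay at 0, the highest at 0.532%, and bright M116 had the highest line (0.0425%).

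The 4 light chains were counted 3.16 times as often as *Myh6* and *Myh7* in control M26 and 1.26 times in M73. The ratio was 2.66 and 2.32 in bright CMs of M25 and M116, 2.62 and 2.26 in their dim CMs, and 1.51 and 1.80 in M72. The control mice lay at both ends, and the values went with the plate, with M73 and M72 on 1 plate at the low end. Mouse M116, spread over 2 plates, had 1.95 and 2.82 in bright CMs and 1.89 and 3.01 in dim CMs on its first and second plate. Bright and dim CMs of one plate thus lay closer together than the plates of this mouse did. The difference between bright and control CMs was 0.284 (exact permutation p = 1), and -0.494 and 1.06 in the plate series. The light chains are short transcripts and the heavy chains long ones, and the part of RNA quality or library length in this ratio was not tested.

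The ratio of *Mybpc3* to heavy chain counts was 0.217 and 0.140 in controls, 0.256 and 0.295 in bright CMs, 0.212 and 0.285 in dim CMs, and 0.138 and 0.180 in M72. Bright CMs exceeded controls by 0.0972 with no overlap (exact permutation p = 0.333), by 0.0392 and 0.155 in the plate series. This ratio also went with the plate in M116, at 0.258 and 0.345 in bright CMs and 0.253 and 0.351 in dim CMs. The share of *Myh7* differed less between these plates, at 1.61% and 1.81% in bright and 1.38% and 1.55% in dim CMs.

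**Figure D5:**
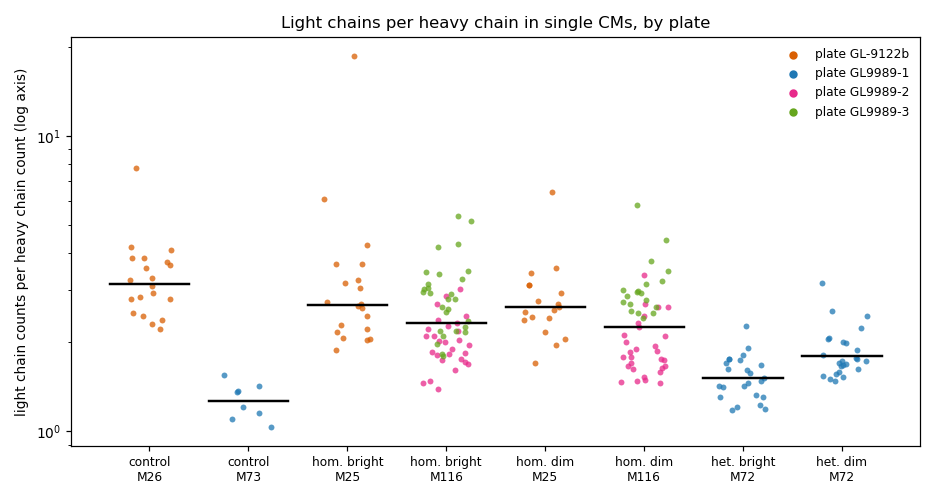
Counts of the 4 light chains per count of *Myh6* and *Myh7* in each CM with at least 1000 detected genes (log axis), by mouse and brightness class and coloured by plate, with a black line for the ratio of the class's summed counts. CMs of the plate that M73 and M72 shared lay lowest (lines at 1.26, 1.51 and 1.80), and the CMs of M116 overlapped between its 2 plates but stood higher on the second. The cell at 18.7 was a well of M25 with fibroblast markers.

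Across the 219 cells, after the mean of each mouse and brightness class had been removed, the levels of the members were compared with each other and with 7950 genes by Spearman's rho. These values describe cells that share libraries and depth and carry no test. *Myl2* and *Myl3* were most alike of the members named here (rho 0.697), ahead of *Myh6* with *Myl3* (0.489), *Myl2* (0.446), *Myh7* (0.401) and *Mybpc3* (0.395). *Myl4* and *Myh6* had a rho of -0.191. Without the 2 wells low in cardiomyocyte markers that were among these cells, the values were 0.629, 0.384, 0.303, 0.350 and 0.272 for the first 5 pairs. The 5 genes outside the members closest to *Myh6* were *Chchd10* (0.659), a mitochondrial protein, *Ryr2* (0.612), the calcium release channel, *Tnni3* (0.551), cardiac troponin I, *Ttn* (0.536), titin, and *Map1lc3a* (0.535), an autophagosome protein. Without the 2 wells these were 0.582, 0.530, 0.445, 0.442 and 0.439.

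*Myh7* had no gene as close, with *Arhgef10l* at 0.313, *Ldb3*, a Z-disc protein, at 0.305, *Hacd1* at 0.300 and *Hadha*, an enzyme of fatty acid oxidation, at 0.294. For *Myl4* the first was *Gusb* (0.412), a lysosomal glucuronidase, with *Elovl1*, *Zfp362* and *Pcsk7* also among the closest, and for *Myl7*, with counts in 4 cells, it was *Depdc5* (0.384), ahead of *Arhgef18*, *Elp4*, *Rrp15* and *Grwd1*. The values for *Myl4* and *Myl7* rest on the few cells with a count, 18.3% and 1.83% of the 219.

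A list of 33 other myosin and thick filament genes (further heavy and light chains, light chain kinases, myosin binding proteins, myomesins, titin, obscurin and chaperones of myosin) was set beside the members. None of the 19 tested for bright against control, the 20 for dim against control and the 22 for bright against dim passed in either direction by edgeR, and 0, 0 and 2 had an unadjusted p under 0.05, against 6.55%, 6.22% and 4.12% of all genes tested. DESeq2 called 0, 0 and 1 of them, the last being *Mybphl*, and limma called none. Their median log2 fold changes were -0.32, -0.32 and -0.01, against 0.11, 0.10 and -0.01 over all genes tested. The groups did not overlap in 2 genes higher and 5 lower, 3 higher and 4 lower, and 3 higher and 6 lower, against 39.2%, 38.0% and 31.1% of all genes tested in either direction. By size, *Myh9*, the non-muscle myosin IIA heavy chain, had log2 fold changes of -2.44 (SE 1.24) in bright and -2.22 (SE 1.23) in dim CMs against controls, in which M73 had 44.9 normalised CPM and M26 had 4.46 (bright fit). *Mylk*, the smooth muscle light chain kinase, had 1.80 (SE 1.45) and 2.01 (SE 1.66) at levels of at most 4.39 normalised CPM. *Mylk4*, a kinase of the same family, had -1.82 (SE 0.79) in bright CMs against controls and -1.41 (SE 0.35) against dim CMs (edgeR, Benjamini-Hochberg, adjusted p = 0.999). In the first of these fits control M26 had 28.8 and M73 148 normalised CPM, against 20.6 and 29.3 in bright CMs, so that the groups overlapped. *Mybphl*, a relative of *Mybpc3* known from the atrium and the conduction system, had no count in both bright sums and 86 and 57 counts in dim M25 and M116, at least 53.6-fold lower in bright CMs against a floor of 3 counts over the group, without passing edgeR's test (Benjamini-Hochberg, adjusted p = 0.999). For dim CMs against controls its log2 fold change was 2.73 (SE 1.93), and *Myom3*, an M-band protein, had -1.70 (SE 1.80) in bright against dim CMs.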

How the data were processed

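The authors mapped paired reads of 75 bases from a HiSeq 4000 with STAR 2.7.0f to a mouse reference extended by the transcripts of human BAG3 and eGFP, counted them per gene (GeneCounts), and deposited raw whole-number counts per gene and cell without normalization. The submitters' processing notes name STAR and bcl2fastq. Genome build, annotation and strand column are not given in the sources used here, so gene positions are not printed, and microRNA positions are those of RefSeq's own build. Overlapping exons on the other strand exist for all members but *Myl7* and *Mybpc3*.

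The mouse is the replicate: counts were summed per mouse and brightness class and tested with edgeR 4.0.16 (R 4.3.3; filterByExpr, TMM, glmQLFit, glmQLFTest, Benjamini-Hochberg, threshold 0.05) on the 4 sums of each comparison. Shares were tested with exact permutation tests over mice and adjusted over 21 comparisons. Intervals at the 95% level (Clopper-Pearson, Poisson) and floors of 3 counts cover counting error only. Fits were tested on simulated data, with 200 genes among 12203 changed at least 4-fold up or down. For bright against control, 45 were recovered at the dispersion estimated from the data (5 false calls), so that most changes of this size were missed. At a low dispersion 199 were recovered (8 false calls). Cells were picked by hand, and no doublet caller was run. Bright and dim CMs are paired by animal, as the labels give, and the main fit did not use this pairing. The mouse differences in both classes had a Pearson r of 0.0752 and a Spearman rho of 0.104 over 13439 genes, which are not independent replicates. These values need not hold for single members. *Myl2* had 12462 and 9080 normalised CPM in bright CMs of M25 and M116, and 13200 and 8316 in their dim CMs.

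Named were the 8 members, the 3 list genes with the largest absolute log2 fold change in each comparison (none passed), the 5 genes most like *Myh6*, *Myh7*, *Myl4* and *Myl7* among those counted in 25% of cells, and marker genes; some of the genes most like a member are not reported here. *Nppa* and *Tnni1* in single cells were chosen after seeing their values. Members and lists were chosen with earlier results of these data known. Alternatives were DESeq2 1.42.0, limma 3.58.1 with equal weight of cells, library size alone, cells with at least 1000 genes alone, no filter on counts, the plate series or mouse as a block, each mouse left out, and, chosen after seeing the data, limma over cells with at least 1000 genes, and either plate of M116, the 3 wells or, for *Myh7*, the cell with its most counts in each sum left out.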

Additional observations from a re-analysis of the deposited data

Results flagged for a closer look

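For 6 quantities the difference between bright and dim CMs had one sign in both homozygous mice and the other sign in the heterozygous mouse M72. The difference between the genotypes was not tested, since M72 is 1 mouse, and in M72 the transgene counts went against the brightness labels. In the order M25, M116 and M72, bright minus dim was -5.90, -3.71 and 4.10 CPM for *Myh7b*, 232, 225 and -1419 CPM for *Myl3*, and 347, 173 and -335 CPM for *Mybpc3*. The share of *Myh7b* in heavy chain counts differed by -0.0610, -0.0497 and 0.0198 percentage points. In M72 a single cell held 109 of the 243 *Myh7b* counts under the label bright. Without the cell with the most *Myh7b* counts in each sum, M72 had 10.06 CPM under the label bright and 10.05 under dim. *Mybpc3* per heavy chain count differed by 0.0437, 0.01003 and -0.0416, and light chains per heavy chain count by 0.0409, 0.0672 and -0.286. For *Myh7* and *Myl4* CPM and for the *Myh7*, *Myl4* and atrial shares all 3 mice had the same sign under the labels. For *Myl4* CPM the sign in M72 turned without the cell with the most *Myl4* counts in each sum, with 1.21 CPM under the label bright and 1.64 under dim. For *Myh7* the sign in M25 rested on 1 bright cell, and with the cell with the most *Myh7* counts left out of each sum, bright CMs of M25 had 71.5 CPM and a share of 0.754%, against 82.0 CPM and 0.879% in dim CMs. Ordered by transgene counts the signs of M72 turn, and the 6 quantities would have one sign in all 3 mice, which follows from how they were chosen, while the other 5 would not. Groups of 1 or 2 mice are too small for a test of outlying samples.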

How the results depend on the processing

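The number of genes called moved with the method. For bright against control, 2 genes passed in the main test, 92 with DESeq2, 0 with limma and equal weight of cells over all cells (1131 at an unadjusted p under 0.05) or over cells with at least 1000 genes (638), 163 without a filter, 10 with the plate series as a block, 3 without the 3 wells, and 0 to 41 with a mouse left out (0 without control M26, 41 without bright M116, 15 without bright M25). For dim against control, 0 passed, 53 with DESeq2, 58 without a filter, 12 with the plate series as a block, and 3 to 827 with a mouse left out (827 without control M26). For bright against dim, 0 passed, 91 with DESeq2, 217 without a filter, and 0 to 74 with a mouse left out (74 without bright M116). With the mouse as a replicate block 0 passed (468 at an unadjusted p under 0.05), and no call of a member changed. The causes were not tested.

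Among alternative values of member fold changes, 259 kept sign and side of the threshold, 40 changed sign and 1 passed it, *Myh6* in dim against control without control M26 (-1.25). Among alternative shares and ratios, 206 kept their sign and 21 did not. Without the first plate of M116 the share of *Myh7b* differed by 0.0123 percentage points (bright against control), -0.00991 (dim against control) and 0.0222 (bright against dim), and light per heavy chain by -0.0753 (bright against dim). As medians over cells, the differences were -0.0611 for *Myh7* and -0.0409 for light per heavy chain in bright against dim CMs, and -0.0261 for *Myh7b* in dim against control. With a mouse left out, bright against control ran from -0.0894 to 0.0331 (positive without bright M25) for *Myh7b*, from -0.0201 to 0.00520 (positive without control M26) for *Myl7* and from -0.664 (without control M73) to 1.23 for light per heavy chain. Dim against control ran from -0.0284 (without dim M116) to 0.0828 for *Myh7b*, from -0.00687 (without control M73) to 0.00873 for the atrial share, which was -0.00282 without dim M116, and from -0.718 (without control M73) to 1.18 for light per heavy chain. Bright against dim ran from -0.212 (without bright M116) to 0.532 for *Myh7*, which was -0.112 without dim M25, from -0.117 to 0.00590 (without bright M25) for *Myh7b*, which was 0.000263 without dim M116, from -0.00959 (without dim M25) to 0.0633 for *Mybpc3* per heavy chain, and from -0.129 (without dim M116) to 0.237 for light per heavy chain, which was -0.116 without bright M25.

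Log2 fold changes that changed sign under library size were 0.286 (*Mybpc3*) and 0.0914 (*Myl3*) for bright against control, 0.125 and 0.0619 for dim against control, and 0.00132 (*Myh6*) and 0.0292 (*Myl3*) for bright against dim. Under limma they were 0.0587 (*Mybpc3*) and 0.120 (*Myl3*) for dim against control, and -0.220 (*Mybpc3*), -0.342 (*Myh7*) and -0.340 (*Myl2*) for bright against dim. Over cells with at least 1000 genes, limma gave 0.150 (*Mybpc3*) and 0.0512 (*Myl3*) for dim against control, and -0.192 (*Mybpc3*), -0.240 (*Myh7*) and -0.196 (*Myl2*) for bright against dim. Limma over all cells also moved several values without a change of sign, of which not all are given here. Among them were *Myh7*, at 1.41 (bright against control) and 1.75 (dim against control), and *Myl7*, at -0.20 (bright against control). *Myl4* moved to 0.49, 0.18 and 0.31 in the 3 comparisons. Without the 3 wells those that changed sign were 0.00718 (*Mybpc3*, bright against control), 0.0249 (*Myh6*) and 0.0561 (*Myl3*, both bright against dim). For bright against dim they were also 0.00506 (*Myh6*), 0.162 (*Myh7b*) and -0.00183 (*Myl2*) without the first plate of M116, -0.00819 (*Myl2*) and 0.0120 (*Myl3*) without the second, and for *Myl3* 0.0119 with DESeq2, 0.000594 with cells of at least 1000 genes and 0.00680 without a filter. With a mouse left out, *Mybpc3* ran from -0.304 to 0.268 (positive without control M73, 0.0176 without bright M25) and *Myl7* from -7.73 to 6.37 (positive without control M26) in bright against control. In dim against control *Mybpc3* ran from -0.422 to 0.115 (positive without control M73), *Myh7* from -0.0247 (without dim M116) to 0.482 and *Myh6* from -1.25 to -0.0694. In bright against dim *Myh6* ran from -0.137 to 0.100 (positive without dim M25, 0.0575 without bright M116), *Myh7* from -0.208 (without bright M116, -0.0412 without dim M25) to 0.458, *Myl2* from -0.282 (without dim M116, -0.242 without bright M25) to 0.373, and *Myl3* from -0.148 to 0.140 (without dim M25, 0.135 without bright M116). A lone mouse in a group is assumed to vary like those of the other group. Depth limits *Myl4* and *Myl7*, whose sums rest on 0 to 311 counts.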

Other observations

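*Mhrt*, a long non-coding RNA antisense to *Myh7*, shares exon positions with it, and without a known strand setting reads of both cannot be told apart. Chosen after its values were seen, it had 38.9 and 53.5 CPM in control M26 and M73, 21.3 and 14.3 in bright CMs of M25 and M116, 17.3 and 16.0 in their dim CMs, and 53.5 and 47.2 in M72. All 4 homozygous sums, from M25 and M116 alone, lay below the other 4 on the plain CPM scale, and no test was run. The share of all genes with such a split was not computed. Against controls alone, 14.8% (bright) and 14.2% (dim) of all genes tested were lower without overlap on the TMM-normalised scale.

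The *Mir208b* feature had its 54 counts in 20 CMs with at least 1000 detected genes, whose median share of *Myh7* in the *Myh6* and *Myh7* counts was 1.30%, against 1.12% in the 199 without a count.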
